A study of Mus musculus with 6 samples.

Results

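Genes of the Notch pathway were examined in liver endothelial cells (ECs) of young and aged mice. The members were chosen by name and were 10 of the 24421 gene symbols in the table of read counts, namely the receptors Notch1 and Notch4, the ligands Dll1, Dll4, Jag1 and Jag2, and the target genes Hes1, Hey1, Hey2 and Heyl. All 10 are also in the table of FPKM values, which scale fragments by library size and by the exon length of each gene. The cells were sorted from the livers of wild-type C57BL/6J mice as CD31+CD45- cells, a gate for an endothelial surface protein that is meant to leave out leukocytes. The young group held 3 mice aged 10 weeks, and the aged group held a mouse each of 127, 131 and 136 weeks. The study used female mice and excluded animals with visible tumors or an enlarged liver or spleen, but the livers were not examined by pathology. The aged samples are named here by their weeks.

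Notch signaling passes between neighboring cells. A ligand of the Delta-like (Dll) or Jagged (Jag) family on a cell binds a Notch receptor on its neighbor, the receptor is cut inside the membrane by gamma-secretase, and the freed intracellular part joins the DNA-binding protein Rbpj and Mastermind proteins to switch on target genes. The best known targets, the Hes and Hey genes, encode repressors of transcription. In blood vessels Dll4 and Notch1 restrain sprouting tip cells and favor arterial fate, and in the developing liver Jag1 around the portal vein is needed for bile ducts.

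Total counts ran from 23001556 to 31651817 per sample, so that 3 counts stood at 0.0948 to 0.130 CPM, the count scaled to library size. The lowest count of any member was 12, for Hey2. The markers of the sorted cell type were present, with the CD31 gene Pecam1 between 1366 and 1635 CPM in the 6 samples. A pair of libraries stood apart across age, since Lars2 and Rn45s, which collect ribosomal RNA reads, took 4.68% to 5.53% of counts in 4 samples but 1.29% in young replicate 3 and 0.960% at 127 weeks. Differences within these library clusters are given beside the members. No pair of libraries looked like a double deposit (smallest chi-square per degree of freedom 17.3). CPM values below are normalized by TMM. Log2 fold changes set aged against young samples and come with the standard error and adjusted p of edgeR's quasi-likelihood test over 14612 genes.

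Sequences before the start of a few members are shown to place the ligand that was higher in aged ECs (Jag1), the receptor that was lower (Notch4), the most abundant ligand by FPKM (Dll4) and a target gene (Hey2). They were taken from RefSeq promoters (GRCm38.p6), matched letter for letter to mm9 and ended where the mm9 gene model begins. All read 5′ to 3′ along the gene. Capitals mark the word TGGGAA, the core that Rbpj is known to bind, or its reverse complement TTCCCA.
Jag1, chr2:136942381-136942506, minus strand: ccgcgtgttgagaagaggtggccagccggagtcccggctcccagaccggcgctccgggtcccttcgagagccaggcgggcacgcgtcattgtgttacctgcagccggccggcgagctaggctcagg
Notch4, chr17:34700990-34701212, plus strand: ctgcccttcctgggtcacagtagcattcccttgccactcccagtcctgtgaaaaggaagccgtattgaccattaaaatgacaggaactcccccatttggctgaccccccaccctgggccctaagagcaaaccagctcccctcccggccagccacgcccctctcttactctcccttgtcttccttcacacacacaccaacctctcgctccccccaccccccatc
Dll4, chr2:119151270-119151519, plus strand: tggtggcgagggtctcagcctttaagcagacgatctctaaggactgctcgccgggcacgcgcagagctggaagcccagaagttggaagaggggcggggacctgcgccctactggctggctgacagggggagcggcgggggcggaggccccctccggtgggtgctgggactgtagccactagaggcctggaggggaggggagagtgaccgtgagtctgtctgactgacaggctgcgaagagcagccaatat
Hey2, chr10:30562608-30562839, minus strand: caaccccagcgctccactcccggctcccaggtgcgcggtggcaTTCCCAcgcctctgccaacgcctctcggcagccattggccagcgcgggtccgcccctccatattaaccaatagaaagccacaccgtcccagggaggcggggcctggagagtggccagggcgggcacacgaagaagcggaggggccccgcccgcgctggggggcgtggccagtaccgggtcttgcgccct
RefSeq entries matched 7 of the 10 members with 8 windows of 250 bases before the RefSeq start, and Hes1, Hey1 and Heyl were not matched. The window of Notch1 (chr2:26359343-26359592) and a window of Dll1 (chr17:15512788-15513037) lay wholly inside the mm9 gene model. The word stood in 1 of the 8 windows, that of Hey2, on the strand opposite to the gene and 207 bases before its start. Of 32851 mouse promoter windows of the same length, 21.6% held it on either strand. The GC content of the 8 windows lay between 56% and 87.2%, above the median of 52.4% over all windows.

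No member passed an adjusted p of 0.05 together with a log2 fold change beyond 1 in edgeR, and neither did any other gene (0% of 14612 genes), while 4 of the 10 members had an unadjusted p below 0.05, as had 12.6% of all genes. Of these, Jag1, Hey1 and Dll1 were higher in aged ECs, where 8.32% of all genes were higher at that p, and Notch4 was lower, where 4.32% were. With DESeq2's Wald test 2 members, Hey1 and Jag1, passed the adjusted threshold upward, beside 2.7% of all genes, and 0 passed downward, beside 0.527% (3.23% in either direction). The aged values lay entirely above the young values for Jag1 and Hey1 (9.62% of all genes) and entirely below them for Notch4 (8.33% of all genes), so that 3 of 10 members did not overlap, beside 17.9% of all genes. The fitted log2 fold change was above 0 for 8 members and below 0 for 2, with a median of 0.45 against 0.0098 over all genes tested. By role, the 4 ligands had a median of 0.83, the 4 target genes 0.56 and the 2 receptors -0.38.

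**Figure D1:**
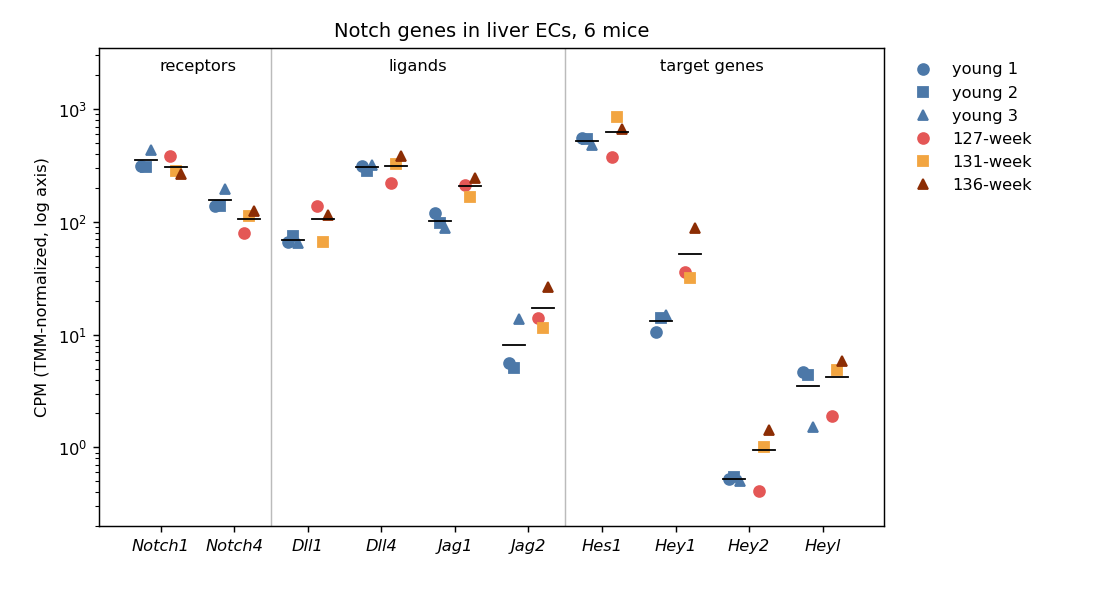
Each point is the TMM-normalized CPM (log axis) of a member in a mouse, with young samples in blue, aged samples in red, orange and brown, and a black line at the mean of each group of 3. Jag1 and Hey1 sit higher in all 3 aged samples, at 167 to 247 and 31.9 to 88.0 CPM. The aged points of Hes1, Dll4 and Hey2 lie on both sides of the young points. For Heyl the 127-week point, at 1.89 CPM, lies within the young range and the other aged points above it.

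Among ligands, Jag1 (chromosome 2, 136907192 to 136942380 of mm9) had the smallest p of the 10 members. Young ECs had 120, 98.5 and 88.7 CPM in order of replicate, and aged ECs had 211, 167 and 247 CPM in order of age (127, 131 and 136 weeks), an order kept below. Every aged sample was thus above every young sample, with a 2.04-fold difference (log2 fold change 1.03, standard error 0.20, adjusted p = 0.193, n = 3 each). The spread of the aged samples (SD 40.1) and of the young samples (SD 15.8) was below the difference of their means, 208 and 102 CPM. Within the library clusters (many, then few Lars2 and Rn45s counts) the difference was 0.90 and 1.24 on the log2(CPM + 1) scale. With DESeq2 the adjusted p was 8.47e-04, the lowest over 16 alternatives, and the highest was 0.625. Jag1 encodes a Jagged ligand that in endothelium can compete with Dll4 for Notch receptors.

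Jag2 (chromosome 12, 114146801 to 114167706), the other Jagged ligand, was expressed at a much lower level. Young ECs had 5.58, 5.05 and 13.8 CPM, and aged ECs had 14.2, 11.4 and 26.4 CPM. Young replicate 3 lay above the 131-week sample, so the ages overlapped. The log2 fold change was 1.09 (standard error 0.48, adjusted p = 0.408), with a 95% interval from -0.036 to 2.21. The library clusters differed here, with 1.55 among the 4 libraries with many Lars2 and Rn45s counts and 0.037 between the other pair of libraries, on the log2(CPM + 1) scale.

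Dll4 (chromosome 2, 119151520 to 119161698), the ligand best known from sprouting vessels, showed no common direction among aged mice. Young ECs had 315, 284 and 317 CPM. The 127-week sample lay below all of them at 222 CPM, and the 131- and 136-week samples lay above them at 330 and 386 CPM. The means were close, at 305 ± 18.6 and 313 ± 83.4 CPM (SD, n = 3 each), and the log2 fold change was 0.035 with a 95% interval from -0.47 to 0.54. Its sign turned in 6 of 16 alternatives, the FPKM values among them. Within the library clusters the difference was 0.26 for many and -0.51 for few Lars2 and Rn45s counts on the log2(CPM + 1) scale, in opposite directions. The aged mice were spread more widely, with an SD of 0.41 on the log2(CPM + 1) scale against 0.089 in young mice.

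Dll1 (chromosome 17, 15504318 to 15513836), a second Delta-like ligand, was higher in the 127- and 136-week samples, at 138 and 114 CPM, than in young ECs, at 66.7, 75.6 and 64.6 CPM. The 131-week sample, at 66.6 CPM, lay within the young range. The log2 fold change was 0.63 (standard error 0.26, adjusted p = 0.385). Within the library clusters (many, then few) it was 0.29 and 1.09 on the log2(CPM + 1) scale. Leukocyte markers were also lowest in the 131-week sample among aged mice but highest in the 136-week sample, with the summed CPM of 10 markers at 193 and 515 in the 127- and 136-week samples and 35.7 in the 131-week sample, against 38.0 to 81.0 in young ECs. Of these 10 markers, 10 had a log2 fold change above 0, 2 did not overlap between ages, and the CD45 gene Ptprc stood at 7.57, 1.28 and 25.6 CPM in aged ECs against 1.17 to 1.70 CPM in young ECs. DESeq2 called 5 of the 10 higher in aged ECs, and Cd3e was at 0 in young replicate 3. Their part in the Dll1 difference was not tested. In the annotation, 20.5% of the exonic bases of Dll1 are shared with A930024N18Rik on the opposite strand. Of Notch1, 7.5% are shared with 0610009E02Rik and 2.91% with Gm13568, and of Dll4 5.56% with Gm14207, also on the opposite strand. The strand setting of the counting is not stated, so the gene of reads in these shared stretches is uncertain.

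The makeup of the ligand pool was compared by FPKM, which allows levels of different genes to be set side by side. Dll4 held 69.9%, 68.2% and 72.4% of the summed FPKM of the 4 ligands in young ECs, against 45.7%, 66.3% and 58.7% in aged ECs. No aged sample reached the lowest young share, though the 131-week sample came near it. The share of Jag1 lay between 11.6% and 15.3% in young and between 19.4% and 25.2% in aged ECs and did not overlap. The summed FPKM of the ligands was 137 ± 6.31 in young ECs and 171 ± 29.3 in aged ECs (± SD over 3 mice per age), with the 136-week sample, at 204, far above the other aged samples at 152 and 155. These shares follow from the values of single ligands above and were not tested.

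**Figure D2:**
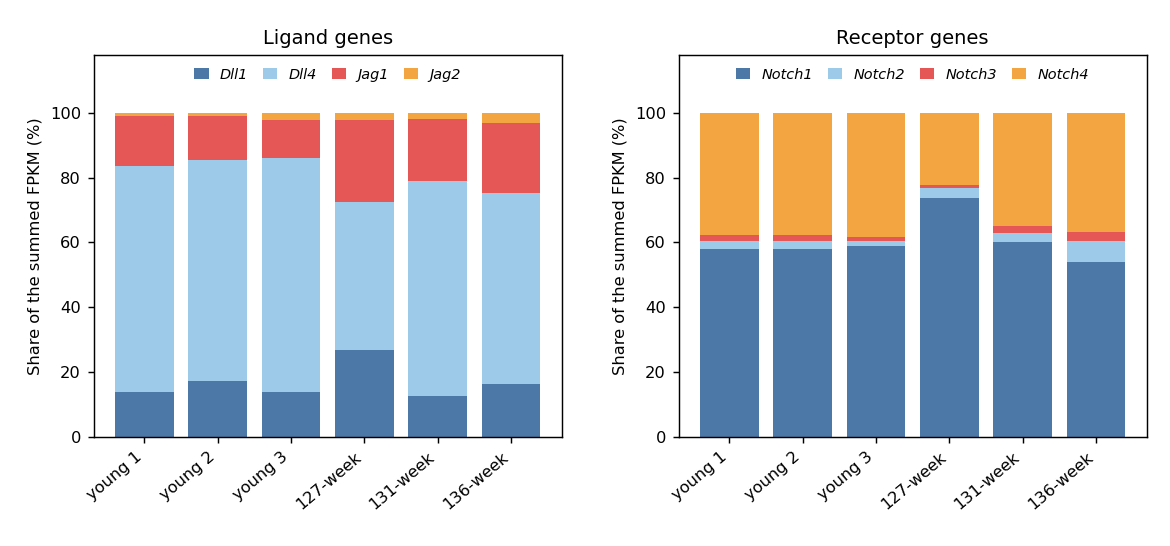
Stacked bars give the share of each gene, in percent of the summed FPKM, among the ligands (left) and the receptors Notch1 to Notch4 (right) in each of the 6 samples. Dll4 takes 68.2% to 72.4% of ligand FPKM in young and 45.7% to 66.3% in aged ECs, and the 127-week sample also stands apart among receptors with 22.4% for Notch4.

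Among receptors, Notch4 (chromosome 17, 34701213 to 34725448), whose expression is largely endothelial, was lower in each aged sample. Young ECs had 139, 138 and 197 CPM, against 79.99, 113 and 124 CPM in aged ECs. The gap between the lowest young and the highest aged sample was small, and the log2 fold change was -0.58 (standard error 0.22, adjusted p = 0.366) with a 95% interval from -1.10 to -0.053. Within the library clusters the difference was -0.22 among the libraries with many Lars2 and Rn45s counts but -1.29 between the other pair, on the log2(CPM + 1) scale.

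Notch1 (chromosome 2, 26313423 to 26372183), the main receptor of Dll4 in vessels, had 312, 306 and 439 CPM in young ECs, against 383, 283 and 264 CPM in aged ECs. The ages overlapped, because the 127-week sample lay above young replicates 1 and 2. The log2 fold change was -0.18 (standard error 0.22, adjusted p = 0.794), with a 95% interval from -0.69 to 0.33. In both library clusters the difference was small, at -0.17 and -0.20 on the log2(CPM + 1) scale, and within each age the library with few Lars2 and Rn45s counts held the highest value. The 2 receptors outside the member list were rarer, and Notch2 stood at 1.29 to 1.37 FPKM and Notch3 at 0.839 to 1.03 FPKM in young ECs. Notch2 had 14.7, 14.5 and 13.8 CPM in young ECs, against 19.3, 14.74 and 36.4 CPM in aged ECs (log2 fold change 0.71, adjusted p = 0.434). In FPKM, Notch1 made up 57.9% to 58.9% of the 4 receptors in young ECs and 53.8% to 73.6% in aged ECs, and Notch4 37.6% to 38.4% and 22.4% to 36.7%. The 3 young mice were thus nearly alike in receptor makeup, and the widest departure was that of the 127-week sample. The summed FPKM of the receptors was 55.4, 54.6 and 78.3 in young ECs, against 54.1, 48.6 and 50.6 in aged ECs. Young replicate 3 was the highest sample in this sum, and the other 5 lay between 48.6 and 55.4. The ages of Notch2 were hardly separated, with 14.7427 CPM at 131 weeks and 14.7394 CPM in young replicate 1.

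Among target genes, Hey1 (chromosome 3, 8663362 to 8667039), a transcriptional repressor induced by Notch in arteries, had the largest difference of the 10 members. Young ECs had 10.6, 14.0 and 14.9 CPM, and aged ECs had 35.9, 31.9 and 88.0 CPM. All aged samples were above all young samples, and the 136-week sample stood far above the other aged samples. The fold was 3.94 (log2 fold change 1.98, standard error 0.41, adjusted p = 0.203), with a 95% interval from 1.02 to 2.93 on the log2 scale. Without the 136-week sample the log2 fold change was 1.36, and within the library clusters the difference was 2.03 and 1.22 on the log2(CPM + 1) scale. With DESeq2 the adjusted p was 3.43e-04, the lowest over 16 alternatives, and the highest was 0.625. Among the 4 target genes its share of the summed FPKM was 1.20%, 1.60% and 1.86% in young ECs, against 5.66%, 2.30% and 7.69% in aged ECs, the rest being almost all Hes1. In FPKM, Hey1 was 6.31 ± 1.08 in young ECs and 24.9 ± 14.96 in aged ECs (± SD over 3 mice per age).

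Hes1 (chromosome 16, 30064470 to 30067882), the most abundant member by FPKM, did not follow Hey1. Young ECs had 553, 542 and 485 CPM. The 127-week sample lay below them at 376 CPM and the 131- and 136-week samples above them at 856 and 667 CPM. The log2 fold change was 0.27 (standard error 0.29, adjusted p = 0.769), with a 95% interval from -0.41 to 0.94, and it was -0.014 without the 131-week sample. Within the library clusters (many, then few) the difference was 0.47 and -0.37 on the log2(CPM + 1) scale, in opposite directions. Hes1 encodes a repressor that responds to Notch but also to other signals. A further Notch target from the pathway list, the feedback inhibitor Nrarp, had 88.1 ± 23.1 CPM in young ECs and 81.0 ± 27.9 CPM in aged ECs (± SD over 3 mice per age, adjusted p = 0.927).

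Hey2 and Heyl, the relatives of Hey1, were rare transcripts. Hey2 (chromosome 10, 30552165 to 30562607) had 14, 12 and 16 counts in young ECs, against 12, 26 and 35 counts in aged ECs, which corresponds to 0.505 to 0.542 CPM in young and 0.413 to 1.42 CPM in aged ECs. No difference was detected at these low counts (log2 fold change 0.85, 95% interval from -0.63 to 2.33, adjusted p = 0.640). Its difference within the library clusters (many, then few) was 0.53 and -0.091 on the log2(CPM + 1) scale, where such low values are compressed. Heyl (chromosome 4, 122910799 to 122927118) had 4.69, 4.38 and 1.51 CPM in young ECs, against 1.89, 4.86 and 5.85 CPM in aged ECs. The low values were those of the libraries with few Lars2 and Rn45s counts, so Heyl separated the libraries and not the ages (log2 fold change 0.25, adjusted p = 0.909). Within both clusters it was 0.20 higher in aged ECs on the log2(CPM + 1) scale. Heyl and Notch3 are known from mural cells, and Notch3 had the same low samples, at 6.75 and 3.54 CPM against 8.26 to 11.6 CPM in the other 4. Of 11 stellate and mural markers, 9 had a log2 fold change above 0, with a summed CPM of 175 to 303 in young and 239 to 745 in aged ECs. None of the 11 lay higher in all aged samples. The stellate marker Lrat lay lower in all of them (log2 fold change -2.19, adjusted p = 0.286), and DESeq2 called it lower. Without Reln, the most abundant of them, the other 10 summed to 105 to 147 CPM in young and 85.2 to 249.5 CPM in aged ECs. In 7 of the 11 the same pair of libraries held the lowest values, Pdgfrb among them at 6.09 and 8.87 CPM against 11.5 to 18.2 CPM, and in Reln, Kcnj8, Myh11 and Lrat it did not. None of these markers was at 0, and their part in Heyl was not tested.

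**Figure D3:**
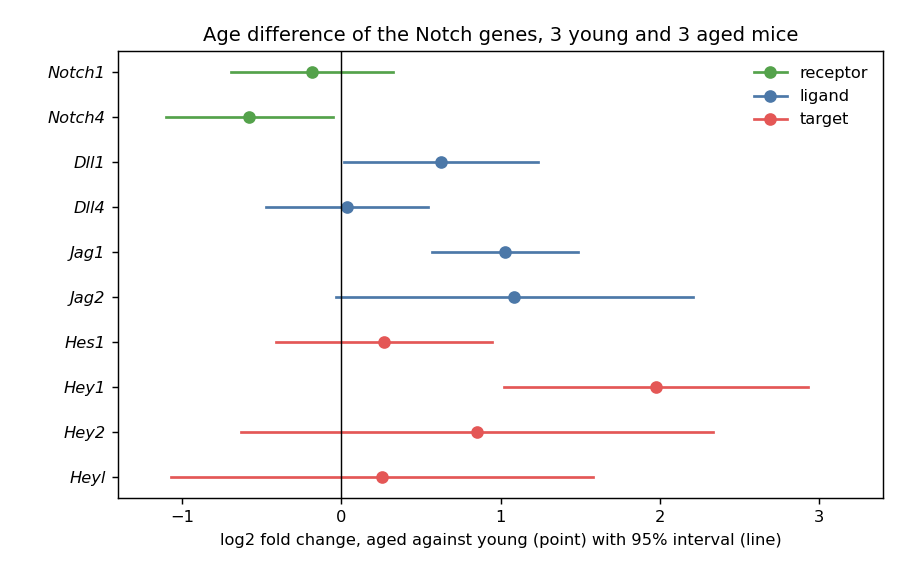
Points are log2 fold changes of aged against young ECs from edgeR for the 10 members and lines are 95% intervals, colored by role. The intervals of Jag1 (0.57 to 1.49) and Hey1 (1.02 to 2.93) lie farthest from 0, and those of Notch1, Dll4, Jag2, Hes1, Hey2 and Heyl include it.

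The members were ranked by FPKM within each age. In young ECs it ran from Hes1 (401 ± 22.5) through Dll4 (96.0 ± 6.85), Notch1 (36.6 ± 8.21), Notch4 (23.8 ± 5.39), Dll1 (20.3 ± 1.65), Jag1 (18.5 ± 2.74), Hey1 (6.31 ± 1.08), Jag2 (1.89 ± 1.15) and Heyl (0.785 ± 0.383) to Hey2 (0.218 ± 0.00552, SD, n = 3 each). The neighbors Notch4 and Dll1, and Dll1 and Jag1, overlapped in range, and the other neighbors did not. In aged ECs Jag1 (37.6 ± 7.21) moved up beside Notch1 (32.1 ± 6.78) and Dll1 (31.3 ± 10.9), and Hey1 (24.9 ± 14.96) passed Notch4 (15.9 ± 3.36, SD, n = 3 each). From Jag1 down to Notch4, each neighbor in the aged order overlapped the next in range, as did Heyl and Hey2. The 136-week sample held the highest CPM of the 6 samples for 6 of the 10 members, where 25.7% of all genes tested had their highest value there.

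The other genes of the pathway were described from a list of 48, of which 43 passed the filter on low counts. The ligand genes Dll3, Dlk1 and Dner and the targets Hes5 and Hes7 did not, and Dll3 had at most 1 count per sample. None of the 43 passed the adjusted threshold in edgeR or in DESeq2. At an unadjusted p below 0.05 in edgeR, 3 were higher (8.32% of all genes were) and 1 was lower (4.32% were), and 3 lay entirely above and 8 entirely below the young values, beside 9.62% and 8.33% of all genes. Their median log2 fold change was -0.056, and Rbpj itself stood at 47.0 ± 8.53 CPM in young ECs and 54.6 ± 17.3 CPM in aged ECs (± SD over 3 mice per age, adjusted p = 0.794).

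Among the enzymes that glycosylate Notch, Lfng, a fringe enzyme that favors Delta over Jagged ligands, had 44.8, 62.4 and 47.5 CPM in young ECs, against 18.0, 42.4 and 16.4 CPM in aged ECs. Each aged sample was below each young sample, the 131-week sample narrowly (log2 fold change -1.01, standard error 0.37, adjusted p = 0.350). Pofut1 and Poglut1, which add fucose and glucose to the receptor, stood at log2 fold changes of -0.29 and -0.20 without overlap of the ages (adjusted p of 0.438 and 0.568), and the other fringe genes Mfng and Rfng stood at 0.082 and 0.018. Of the 10 genes for receptor cleavage, Adam17 was lower in all aged samples, at -0.24 on the log2 scale (adjusted p = 0.541). The gamma-secretase subunit Aph1c was higher in all of them, at 0.931 to 1.70 CPM in young and 2.18 to 2.92 CPM in aged ECs (log2 fold change 1.13, adjusted p = 0.353), and Aph1b had a log2 fold change of 0.65 with overlap (adjusted p = 0.339). Aph1b and Aph1c are near-identical copies, so the split of reads between them is uncertain.

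In the group listed for turnover and inhibition of Notch, Dtx3, a Deltex family gene, had 8.71, 9.93 and 9.21 CPM in young ECs, against 16.4, 13.7 and 16.4 CPM in aged ECs. It had the smallest p of the 43 genes and did not overlap between ages (log2 fold change 0.74, standard error 0.18, adjusted p = 0.242). DESeq2 gave it an adjusted p of 0.0154, with a log2 fold change below the limit of 1. Numb, an inhibitor of Notch receptors, was lower without overlap, at 283 ± 46.4 CPM in young ECs and 207 ± 35.2 CPM in aged ECs (± SD over 3 mice per age, log2 fold change -0.45, adjusted p = 0.399). The co-repressor genes Hdac1 and Ctbp1 were also lower in all aged samples, at -0.28 and -0.15 on the log2 scale (adjusted p of 0.473 and 0.670). The 6 genes of the nuclear complex, Rbpj included, all overlapped between ages, with log2 fold changes between -0.18 and 0.22.

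**Figure D4:**
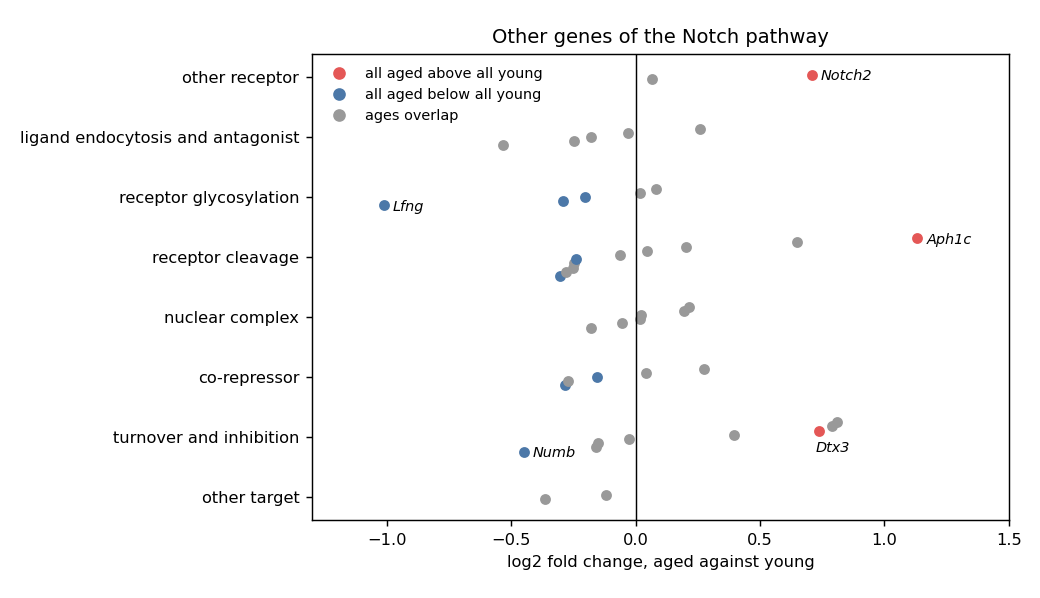
Each point is the log2 fold change of aged against young ECs for a gene of the pathway outside the 10 members, sorted by role, in red or blue where all aged samples lay above or below all young samples and in grey where the ages overlapped. Lfng (-1.01) and Aph1c (1.13) lie farthest out, and the genes of the nuclear complex stay within -0.18 and 0.22.

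The sorted cells held a mixture of EC types, and marker lists were read beside the Notch genes. Sinusoidal markers mark the bulk of liver ECs, and their summed CPM was lower in aged samples. It was 15496 to 17127 in young and 6026 to 10809 in aged ECs. Of the 8 markers, 6 were lower without overlap, Stab2 among them at 2902 to 3199 and 504 to 1760 CPM. Lyve1 and Gata4 overlapped between ages, with log2 fold changes of 0.58 and -0.12. None of the 8 passed the adjusted threshold in edgeR, and DESeq2 called 4 of them lower. In bulk RNA, fewer cells of a type and less RNA per cell cannot be told apart. Of 7 arterial markers, 6 had a log2 fold change above 0 and 2, Bmx and Sox17, lay higher in all aged samples. The summed CPM overlapped, at 839 to 1459 in young and 848 to 1067 in aged ECs. Gja4, the most abundant of the 7, was the marker below 0 (log2 fold change -0.77). Without it the other 6 summed to 365 to 441 CPM in young and 412 to 622 CPM in aged ECs, which also overlapped. The arterial gene Efnb2, a known partner of Notch signaling, had 151, 180 and 171 CPM in young ECs, against 117, 182 and 253 CPM in aged ECs (adjusted p = 0.893). Pan-endothelial markers had a summed CPM of 8411 to 8885 in young and 6088 to 7865 in aged ECs, with 3 of 7 above 0. Kdr and Tek lay lower in all aged samples (log2 fold change -0.65 and -0.38), and the other pan-endothelial markers overlapped. Without Kdr, the most abundant of the 7, the other 6 summed to 5081 to 5204 CPM in young and 4419 to 4856 CPM in aged ECs. Venous and pericentral markers summed to 3989 to 4664 CPM in young ECs, against 3750, 3986 and 2706 CPM in aged ECs. Of these 7 markers, 2 were above 0 and 5 below. Wnt2 and Kit lay lower in all aged samples (log2 fold change -1.01 and -1.17), and DESeq2 called them lower.

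Jag1 is also expressed by bile duct cells. All 7 cholangiocyte markers had a log2 fold change above 0 and 3, Spp1 and Sox9 among them, did not overlap, with a summed CPM of 90.0 to 110 in young and 196 to 244 in aged ECs. Spp1 made up most of that sum, with 77.4 to 96.2 CPM in young and 161 to 206 CPM in aged ECs. Without it the other 6 summed to 29.0, 12.6 and 9.62 CPM in young ECs, against 27.2, 34.5 and 38.1 CPM in aged ECs, and the ages overlapped. DESeq2 called 3 of the 7 higher. The duct keratin Krt19 overlapped between ages, with 14.5, 4.197 and 1.89 CPM in young ECs against 10.5, 13.6 and 11.5 CPM in aged ECs. Of 10 immediate early genes, which respond quickly to stress and to tissue digestion, 9 were above 0 and 6 lay higher in all aged samples. Their summed CPM was 19509 to 23287 in young and 22156 to 30363 in aged ECs. Dusp1 went the other way and lay lower in all aged samples, at 5183 to 5248 CPM in young and 3693 to 4029 CPM in aged ECs. All 6 tested hepatocyte markers were below 0, with a summed CPM of 80.3 to 129 in young and 55.8 to 76.3 in aged ECs, and Alb stood at 40.3 to 74.7 and 36.6 to 45.7 CPM. No marker of these lists was at 0 in any sample, and their part in the differences of Jag1 and Hey1 was not tested.

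**Figure D5:**
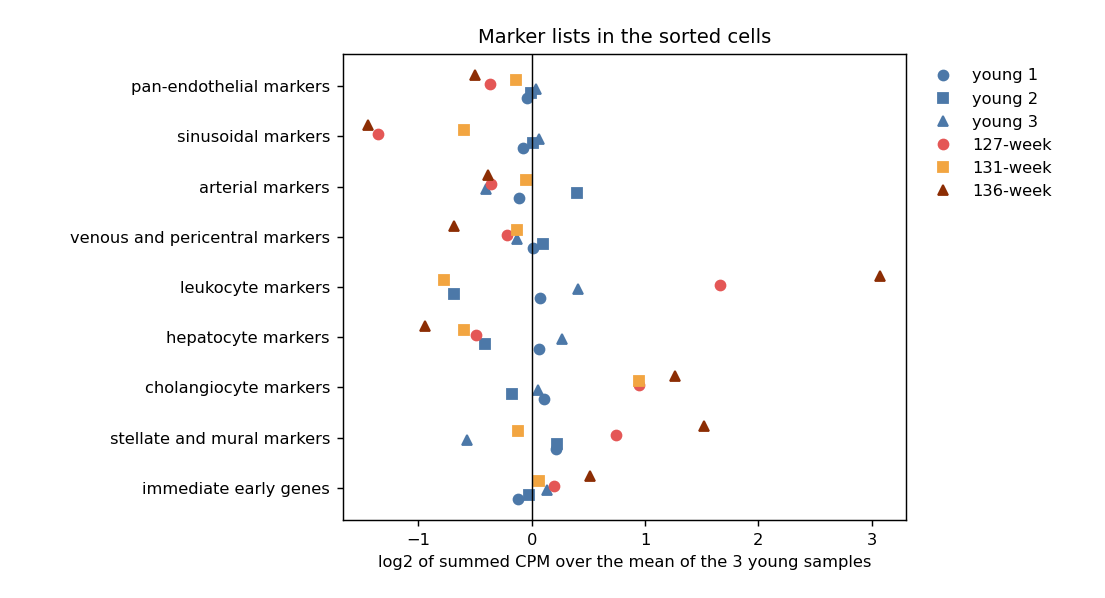
For each marker list the summed CPM of a sample is given as log2 over the mean of the 3 young samples. Sinusoidal and hepatocyte markers lie lower and cholangiocyte markers higher in the 3 aged samples, while leukocyte markers are high in the 127- and 136-week samples (193 and 515 CPM) and not in the 131-week sample (35.7 CPM).

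Genes with the profile most like a member's were sought among 10223 genes with a mean of at least 5 CPM, by the root-mean-square difference of centred log2(CPM + 1) values over the 6 samples. For Jag1 these were Sox4 (0.093), Lrig1 (0.10) and Arrdc4 (0.11), all with higher values in each aged sample. For Hey1 they were Plaur (0.14), C2 (0.17) and Gem (0.19), which shared its high value in the 136-week sample. For Notch4 they were Jak1 (0.11), Pik3cg and Cyth3 (0.13 for both), with the highest value in young replicate 3 and the lowest in the 127-week sample. With 6 samples many genes share a profile, so these are descriptions.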

How the data were processed

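The authors called bases with CASAVA 1.8.2, aligned the single-end reads to mm9 with TopHat2 2.1.0 and deposited read counts per gene symbol, without normalization. The authors computed FPKM values with Cuffnorm 2.2.1, which scales between libraries. The counting program, its annotation and its strand setting are not given in the sources used here.

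Genes reaching a CPM of 0.5 in at least 1 sample (14612) were normalized by TMM and tested with edgeR 4.0.16 (quasi-likelihood) in R 4.3.3, aged against young, with Benjamini-Hochberg adjustment over all of them. Called were genes past a log2 fold change of 1 whose adjusted p was under 0.05. Standard errors are the log2 fold change over the square root of F. DESeq2 1.42.0, limma 3.58.1 and other filters and scalings were alternatives. P-values set the age difference against the spread between these mice within each age, which edgeR moderates across genes. The test was tried on counts simulated with larger fold changes than any member had in this edgeR fit, so the trial does not bear on smaller ones.

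The members and lists were chosen with earlier results of these data known. Named were all 10 members, Notch2, Notch3, Dll3 and Rbpj, pathway genes with an unadjusted p below 0.05 or without overlap, the 3 genes most like each member, and defining markers, except a few genes that are not reported here. Other genes named from marker lists, sums without the most abundant marker, and Nrarp, Mfng, Rfng, Dlk1, Dner, Hes5 and Hes7, were added after their values were seen. Gene positions are from GENCODE on mm9.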

Additional observations from a re-analysis of the deposited data

How the results depend on the processing

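No paired analysis was possible because the young and aged samples came from different mice. The number of genes called was 0 in edgeR (1847 at an unadjusted p below 0.05), 472 with DESeq2, 15 with limma-voom and sample weights, 4 without a filter on low counts, 2 with log2(FPKM + 0.1), 2 with a term for the library cluster and 0 to 1 when a mouse was left out. Of the members, 2 were called with DESeq2 and 0 with every other alternative run. Members without overlap of the ages numbered 3, and 3 to 8 when a mouse was left out. The count was 8 without the 127-week sample, where 29.8% of all genes did not overlap, and 5 without the 131-week sample, where 34.5% did not. It was 9 over the 4 libraries with many Lars2 and Rn45s counts, a choice made after seeing the data, where 45.6% of all genes did not overlap. Signs turned for Dll4, at -0.00047 with limma-voom and at -0.011 with either FPKM scale, and for Heyl, at -0.24 with limma-voom. With a mouse left out the log2 fold change ran from -0.14 to 0.23 for Dll4, from -0.36 to 0.0050 for Notch1, from -0.014 to 0.54 for Hes1 and from -0.11 to 0.61 for Heyl. The causes were not tested. Jag1, Hey1, Jag2, Dll1, Hey2 and Notch4 kept their direction in all 16 alternatives. With a mouse left out, the log2 fold change ran from 0.89 to 1.16 for Jag1, from 1.36 to 2.23 for Hey1, from 0.65 to 1.70 for Jag2 and from -0.71 to -0.38 for Notch4. The counts of 12 to 35 per sample limit what can be said of Hey2.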

Other observations

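The other members also had close companions among the genes tested, by the same root-mean-square difference of centred log2(CPM + 1) values over 6 samples. Dll4 was closest to Pcdhga6 (0.054), Rhobtb2 (0.071) and Epas1 (0.090), the last a hypoxia-inducible transcription factor of endothelium with 635 CPM in the 127-week sample and 757 to 933 CPM in the other 5. Dll1 was closest to Serpinb6b (0.091), Nrbp2 (0.10) and Nr1h3 (0.11). Nr1h3, the oxysterol receptor LXR alpha, had 14.2 to 16.1 CPM in young ECs and 38.0, 15.5 and 28.5 CPM in the 127-, 131- and 136-week samples. Jag2 was closest to Daxx (0.074), Trex1 (0.11) and the stress-induced factor Atf3 (0.17), which had its lowest values in young replicates 1 and 2, at 457 and 449 CPM.

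Notch1 was closest to Pigg (0.026), Zfp292 (0.033) and Xrcc1 (0.042), and Hes1 to Gsto1 (0.10) and Hspe1 (0.14). Heyl was closest to Cfl1 (0.044), Hypk (0.064) and the ribosomal protein gene Rpl39 (0.072). Cfl1 stood at 254 and 301 CPM in young replicate 3 and the 127-week sample and at 522 to 715 CPM in the other 4. For Hey2, whose level is at most 1.42 CPM and thus strongly compressed by the added 1, the nearest profiles were Suco (0.047), Ptprg (0.052) and Pdcd4 (0.056), which are far more abundant.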
